A study of Rattus norvegicus with 6 samples.

Results

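The genes described here are 10 genes of MHC class I antigen processing, chosen by name as the inducible proteasome subunits, the proteasome activator subunits, the peptide transporter chains, tapasin, beta-2 microglobulin and Nlrc5. A probe was matched to 9 of the 10, and those 9 were measured well above background on all 6 arrays and tested among 31193 transcripts. No probe was matched to Nlrc5, so it was not analysed here. The tissue was kidney cortex, and the animals were male rats of the outbred Sprague-Dawley stock (Crl:CD(SD)), bought at 5 weeks of age. One group of 3 rats received carbon tetrachloride at 100 mg/kg/day for 4 weeks, and the other group of 3 rats received corn oil, the vehicle, for the same time. Each rat contributed 1 single-colour array, and the number of arrays limits the precision. Benzyl acetate stands in the design text of the series, but every other label gives carbon tetrachloride, a solvent toxic to liver and kidney, and that name is used here.

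As background, nearly all nucleated cells show peptides from their own proteins on MHC class I molecules, which cytotoxic T cells inspect. Proteins are cut by the proteasome, whose catalytic subunits are exchanged for inducible ones (the immunoproteasome) in immune cells and under interferon-gamma, and the peptides are pumped into the endoplasmic reticulum by the TAP transporter, fitted to class I heavy chains with the help of tapasin, and carried to the surface with beta-2 microglobulin. NLRC5 and interferon regulatory factors switch many of these genes on together. In the kidney, tubular cells and resident leukocytes can both express them, and in RNA of whole cortex fewer cells of a type and less RNA per cell cannot be told apart.

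Since interferon is the known inducer of the pathway, promoter sequences of these genes are shown with the letters that interferon regulatory factors bind. The windows span 250 bases before to 50 after the start site and come from a RefSeq promoter table on the build GRCr8, in which 9 of the 10 genes were matched. The motif searched was GAAA, any pair of bases, then GAAA, on both strands, so that a match on the opposite strand reads TTTC, any pair, TTTC. Capitals mark a match. The 4 windows below belong to Psmb8 (chr20:4656982-4657281, minus strand), Psmb9 (chr20:4668750-4669049, plus strand), Psmb10 (chr19:50743243-50743542, minus strand) and Tap1 (chr20:4668494-4668793, minus strand), which are shown whole because their values moved together from array to array, as described further on.
Psmb8: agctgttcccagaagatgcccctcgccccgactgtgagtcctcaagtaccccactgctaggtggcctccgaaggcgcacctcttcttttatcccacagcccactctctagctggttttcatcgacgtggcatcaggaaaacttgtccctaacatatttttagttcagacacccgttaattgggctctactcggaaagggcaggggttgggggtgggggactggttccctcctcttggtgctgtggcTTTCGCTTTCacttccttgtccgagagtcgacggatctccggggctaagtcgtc
Psmb9: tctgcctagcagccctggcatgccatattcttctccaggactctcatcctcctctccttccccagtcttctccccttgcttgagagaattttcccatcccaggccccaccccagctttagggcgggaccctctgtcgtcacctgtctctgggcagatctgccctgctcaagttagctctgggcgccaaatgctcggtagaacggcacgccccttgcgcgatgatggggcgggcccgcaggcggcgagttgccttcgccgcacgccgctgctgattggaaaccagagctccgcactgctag
Psmb10: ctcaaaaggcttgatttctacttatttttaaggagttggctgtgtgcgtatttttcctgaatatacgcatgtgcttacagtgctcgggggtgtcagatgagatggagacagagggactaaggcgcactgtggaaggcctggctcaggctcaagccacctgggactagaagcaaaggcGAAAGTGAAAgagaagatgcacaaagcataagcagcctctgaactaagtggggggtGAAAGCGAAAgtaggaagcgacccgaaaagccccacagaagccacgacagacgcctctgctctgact
Tap1: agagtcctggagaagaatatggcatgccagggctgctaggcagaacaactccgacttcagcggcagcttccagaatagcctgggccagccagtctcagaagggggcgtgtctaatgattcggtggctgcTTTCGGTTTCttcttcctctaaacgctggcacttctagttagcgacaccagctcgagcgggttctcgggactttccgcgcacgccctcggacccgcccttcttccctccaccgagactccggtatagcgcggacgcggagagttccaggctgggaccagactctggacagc

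Tap1 and Psmb9 are transcribed away from each other, and their windows overlap at the outer ends. The window of Psmb9 holds no match, and that of Psmb10 holds 2, with first bases at -73 and -17 from the start site. For the other genes with a match, 30 bases around the first one are shown.
B2m: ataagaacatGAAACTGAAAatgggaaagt
Tap2: gcagcgaagtGAAAGCGAAAgcccgggacc
Tapbp: gcctttgaggGAAAATGAAAgtgaaaggaa
Psme2: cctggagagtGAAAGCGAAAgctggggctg

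Of the 9 windows, 7 held the motif, with no match in Psmb9 and Psme1, against 3.77% of all 27457 promoters of the same length. The first bases of these matches lay at -150 in B2m, -41 in Tap2, -26 in Tapbp and -53 in Psme2, and Tapbp held another match, at -20, that overlaps the one shown. A match describes the letters and shows no binding. Sequence beyond the windows was not searched, so Psmb9 and Psme1 may hold the motif outside theirs. The match of Tap1 lies between the start sites of Tap1 and Psmb9 but outside the window of Psmb9. The window of Psme1 ends on letters that could open a match.

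Before the groups are compared, 1 array needs a word. Over all transcripts the 6 arrays correlated between 0.9907 and 0.9937 and none stood far apart, but in these genes corn oil replicate 3 differed from the other corn oil arrays. In 7 of the 9 measured genes it lay farther from corn oil replicates 1 and 2 than those lay from each other, which was the case for 36.6% of all transcripts. It was below them in 6 of the 7 and above them in Tapbp, and it was the lowest corn oil array in 7 of the 9, against 37.3% of all transcripts. Results are therefore given with and without that array. Carbon tetrachloride replicate 3 lay alone on a second slide, and all other arrays shared the first. That array lay farther from the other treated arrays than those from each other in 4 of the 9 genes, against 38.5% of all transcripts.

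None of the 9 measured genes differed between carbon tetrachloride and corn oil by the test. In limma 0 of the 9 passed an adjusted p of 0.05, where 0.00321% of all transcripts did, and 0 had an unadjusted p under 0.05, where 6.3% did (3.67% higher and 2.63% lower after carbon tetrachloride). The groups overlapped in each of the 9, whereas they did not overlap for 12.8% of all transcripts (7.55% higher and 5.28% lower). The mean after carbon tetrachloride was the lower one in 9 of 9 genes, against 47.7% of all transcripts, but in 8 of 9 with normexp background correction, within the first slide, and without corn oil replicate 1 or 2. These genes share arrays and vary together, so the count of 9 is a description and carries no test. Their median log2 fold change was -0.13, against 0.0077 over all transcripts, and adjusted p-values ran from 0.837 to 0.954.

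**Figure D1:**
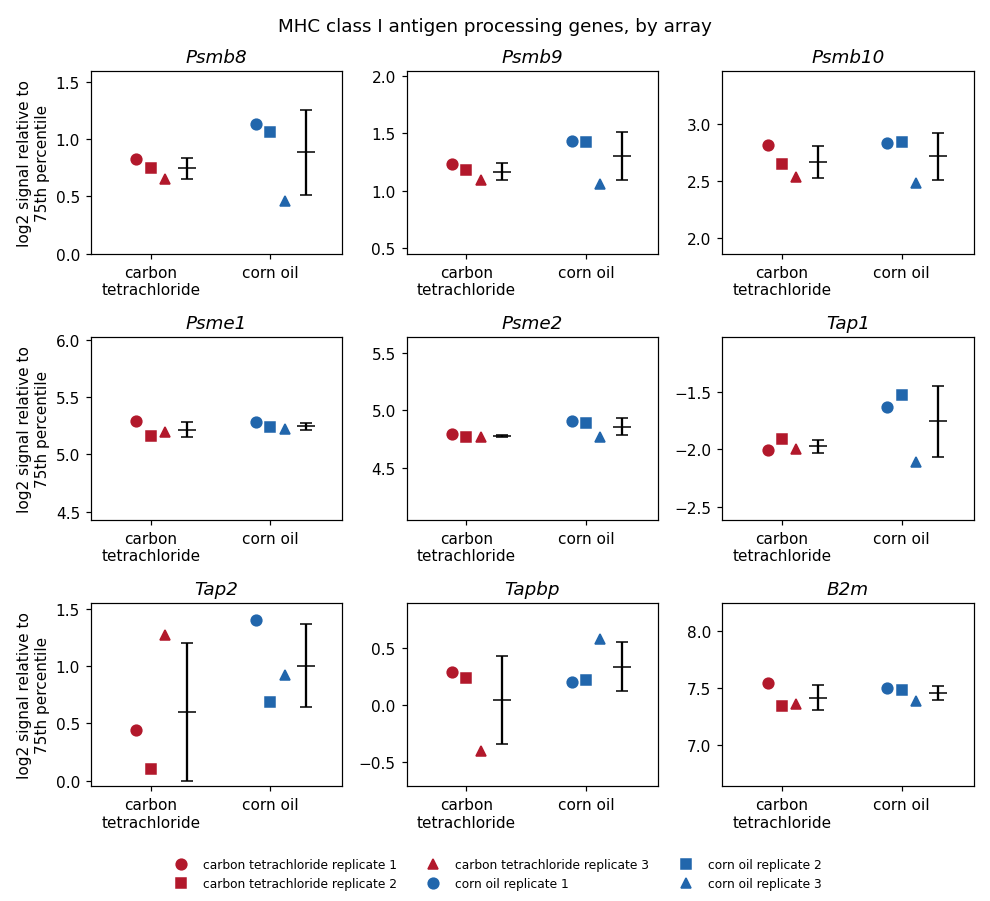
Log2 signal relative to each array's 75th percentile for the 9 measured genes, with carbon tetrachloride arrays (red) left of corn oil arrays (blue), a marker shape per replicate number, and black bars for the mean and SD of 3 arrays. All panels span the same height. In Psmb8, Psmb9, Psmb10 and Tap1 the corn oil triangle, replicate 3, lies below the other 5 points, and in Tap2 and Tapbp the carbon tetrachloride triangle stands apart from its group.

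All levels below are log2 signals relative to the 75th percentile of the array. Levels of different genes come from different probes and are not compared. Psmb8, the inducible subunit that replaces Psmb5, had levels of 0.83, 0.75 and 0.65 in carbon tetrachloride replicates 1 to 3, against 1.13, 1.06 and 0.46 in corn oil replicates 1 to 3. The 3 treated values lay close together and inside the spread of the corn oil values, whose lowest array was replicate 3. The log2 fold change was -0.14 ± 0.19 (SE, n = 3 per group), with a 95% interval from -0.60 to 0.32 and an adjusted p of 0.903 in limma.

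Psmb9, which replaces Psmb6, had levels of 1.23, 1.18 and 1.09 after carbon tetrachloride and 1.43, 1.42 and 1.06 after corn oil. The order was that of Psmb8, with corn oil replicates 1 and 2 on top, the treated arrays below them and corn oil replicate 3 lowest. Its log2 fold change was -0.13 ± 0.12, with a 95% interval from -0.43 to 0.17 (limma, adjusted p = 0.857). Psmb10, which replaces Psmb7, had 2.81, 2.65 and 2.53 after carbon tetrachloride against 2.83, 2.84 and 2.48 after corn oil. The same order held, although carbon tetrachloride replicate 1 came within a few hundredths of the upper corn oil arrays. Its log2 fold change was -0.053 ± 0.13, with a 95% interval from -0.37 to 0.27.

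The activator subunits Psme1 and Psme2 form the PA28 cap, which opens the proteasome and is also induced by interferon-gamma. Psme1 had 5.29, 5.16 and 5.20 in carbon tetrachloride arrays and 5.28, 5.24 and 5.22 in corn oil arrays, so the 6 values nearly coincided. The log2 fold change was -0.033 ± 0.07, and its 95% interval from -0.20 to 0.13 corresponds to 0.872 to 1.1 times the corn oil level. Psme2 had 4.79, 4.77 and 4.77 after carbon tetrachloride against 4.91, 4.89 and 4.77 after corn oil. The treated arrays lay below corn oil replicates 1 and 2 and level with replicate 3, and the log2 fold change was -0.079 ± 0.07 (95% interval -0.25 to 0.09). A second probe of each gene had the same direction, at -0.087 for Psme1 and -0.063 for Psme2.

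The TAP chains pump peptides into the endoplasmic reticulum. Tap1 had levels of -2.01, -1.91 and -2.00 after carbon tetrachloride and -1.63, -1.53 and -2.11 after corn oil. The pattern of the inducible subunits returned, with the treated arrays within 0.10 of each other and corn oil arrays spread over 0.59. The log2 fold change was -0.22 ± 0.16, with a 95% interval from -0.61 to 0.18 and an adjusted p of 0.837 (limma). A second, dimmer probe gave -0.17 ± 0.12, with -2.91, -3.08 and -2.76 after carbon tetrachloride and -2.60, -2.78 and -2.87 after corn oil. Corn oil replicate 3 was its lowest corn oil array, but it lay close to replicate 2 and above carbon tetrachloride replicates 1 and 2. The second probe thus did not have the array order of the main probe.

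Tap2, the partner chain, behaved otherwise. It had 0.44, 0.10 and 1.27 in carbon tetrachloride replicates 1 to 3, against 1.40, 0.69 and 0.92 in corn oil replicates 1 to 3. Carbon tetrachloride replicate 3 and corn oil replicate 1 were the high arrays, 1 in each group. A second probe, with -0.33, -0.36 and 0.39 after carbon tetrachloride and 0.48, -0.21 and 0.10 after corn oil, had the same high arrays. The log2 fold change of the main probe was -0.40 ± 0.34, the largest in size and the least precise of the 9, with a 95% interval from -1.23 to 0.43. Within the first slide, without carbon tetrachloride replicate 3, it was -0.74 ± 0.25 at an unadjusted p of 0.0318 and an adjusted p of 0.711, against adjusted p-values from 0.711 to 0.985 over all settings tried. Without carbon tetrachloride replicate 2 it was -0.15, and without corn oil replicate 1 it was -0.20. The value of Tap2 therefore depends on single arrays of both groups, and no call was made in any of these fits.

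Tapbp encodes tapasin, which holds empty class I molecules at the transporter. Its levels were 0.29, 0.24 and -0.40 after carbon tetrachloride and 0.20, 0.22 and 0.58 after corn oil. Here carbon tetrachloride replicate 3 was the lowest of all arrays and corn oil replicate 3 the highest, and the other 4 lay between 0.20 and 0.29. The log2 fold change was -0.29 ± 0.22 (95% interval -0.82 to 0.24), and within the first slide it was -0.068 ± 0.14.

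B2m, the light chain of every class I molecule, had 7.54, 7.34 and 7.36 in carbon tetrachloride arrays and 7.50, 7.48 and 7.39 in corn oil arrays. The groups overlapped and the log2 fold change was -0.042 ± 0.08, with an adjusted p of 0.934 (limma). Its 95% interval from -0.24 to 0.16 corresponds to 0.844 to 1.12 times the corn oil level. The 5 probes of B2m gave log2 fold changes from -0.042 to -0.0087.

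**Figure D2:**
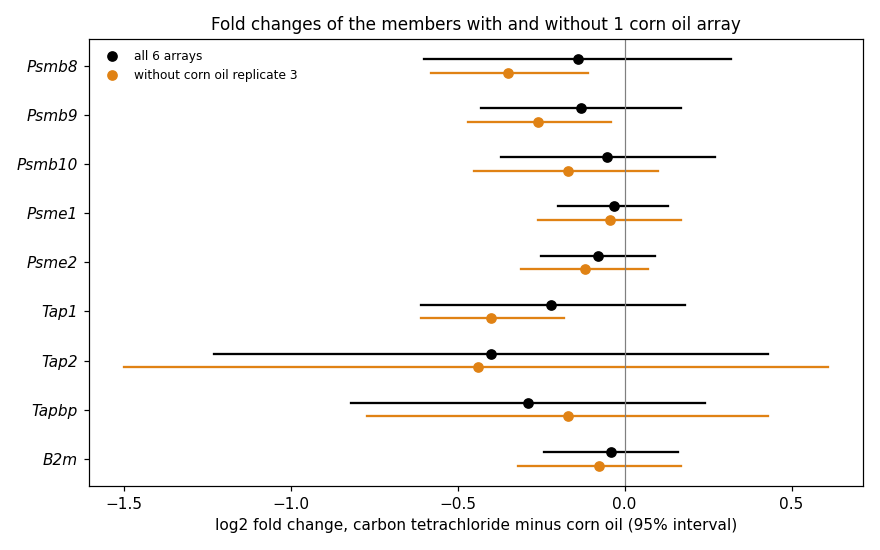
Log2 fold change of each gene, carbon tetrachloride minus corn oil, with its 95% interval from limma, over all 6 arrays (black) and without corn oil replicate 3 (orange). All black intervals include 0, and without that array those of Psmb8, Psmb9 and Tap1 do not.

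The genes divided by how they varied among arrays. Psmb8, Psmb9, Psmb10, Tap1 and Psme2 had corn oil replicates 1 and 2 above and corn oil replicate 3 below all 3 treated arrays, in Psme2 by less than the second decimal. This order, singled out after the values were seen, held for 5 of the 9 genes and for 1.75% of all transcripts. The second probe of Tap1 did not have it. Corn oil replicate 3 lay below the mean of the other corn oil arrays by 0.63 in Psmb8, 0.53 in Tap1, 0.37 in Psmb9 and 0.36 in Psmb10 on the log2 scale. Psme1, B2m and Psme2 had small spreads in both groups, with ranges of at most 0.19, whereas Tap2 ranged over 1.17 among the treated arrays and 0.71 among the corn oil arrays.

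Without corn oil replicate 3 the fold changes of Psmb8, Psmb9, Psmb10 and Tap1 were larger in size and their errors smaller. Tap1 then had a log2 fold change of -0.40 ± 0.08, Psmb8 of -0.35 ± 0.09 and Psmb9 of -0.26 ± 0.08, with unadjusted p-values of 0.00543, 0.0128 and 0.0277. These 3 of 9 compare with 7.45% of all transcripts at an unadjusted p under 0.05 in the same fit. None passed the adjusted threshold, with adjusted p-values in limma of 0.584 for Tap1, 0.6 for Psmb8 and 0.628 for Psmb9, and over all settings tried these ran from 0.584 to 0.978, from 0.6 to 0.998 and from 0.628 to 0.986. Psmb10 had -0.17 ± 0.11. The errors of B2m, at -0.077 ± 0.10, and Tap2, at -0.44 ± 0.41, were larger than with all arrays, and Tapbp was smaller in size at -0.17 ± 0.23. Leaving out another corn oil array moved the values the other way. Without corn oil replicate 1, Psmb8 had -0.014, Psmb9 -0.07 and Tap1 -0.15, and without corn oil replicate 2, Psmb8 had -0.05, Psmb9 -0.071 and Tap1 -0.10. Since this array was left out after its values were seen to differ, the smaller p-values describe the dependence on it and support no call.

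In the constitutive proteasome, whose subunits the inducible ones replace, the array order of Psmb8 was found in 0 of 14 core genes, a count near the 1.75% of all transcripts. Of these 14, 0 passed the adjusted threshold and 0 had an unadjusted p under 0.05, with a median log2 fold change of -0.03. Psmb5 had levels of 4.56, 4.59 and 4.53 after carbon tetrachloride and 4.57, 4.53 and 4.55 after corn oil, 6 nearly equal values. Its log2 fold change was 0.01 ± 0.06, that of Psmb6 -0.066 ± 0.07 and that of Psmb7 0.067 ± 0.07, and the sign of Psmb5 turned with normexp. Corn oil replicate 3 lay apart in 2 of the 14 and was above the other corn oil arrays in both. The genes with the smallest p were Psmb4, at -0.27 ± 0.18 with carbon tetrachloride replicate 2 alone low at 4.45, and Psma3, at -0.11 ± 0.09.

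Of 9 proteasome assembly factors and other activators or inhibitors, 6 were tested and 0 had an unadjusted p under 0.05. Psmf1, an inhibitor of the proteasome, had a log2 fold change of 0.11 ± 0.06, the activator Psme4 0.13 ± 0.11 and the assembly chaperone Psmg2 -0.076 ± 0.07. The partners in peptide import and loading, 11 tested of 14 listed, had a median of -0.012. Against 6.3% of all transcripts, 1 of the 11 had an unadjusted p under 0.05 in limma. That was Sec61a1, the channel of the endoplasmic reticulum, with levels of -1.42, -1.40 and -1.39 after carbon tetrachloride against -1.68, -1.58 and -1.54 after corn oil. Its groups did not overlap, and its log2 fold change was 0.20 ± 0.07 at an adjusted p of 0.773 (limma). The chaperone gene Hspa5 had -0.16 ± 0.08 and the glucosidase subunit gene Prkcsh 0.082 ± 0.06, and their groups did not overlap either. Of the 11, 2 were higher and 1 was lower without overlap, against 7.55% and 5.28% of all transcripts.

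Class I heavy chain and class I-like genes, 21 tested of 25 listed, had 0 members with an unadjusted p under 0.05 and a median log2 fold change of -0.036. The smallest p-values were those of Cd1d1, a lipid-presenting relative, at -0.14 ± 0.09, Hfe, a regulator of iron uptake, at -0.15 ± 0.12, and RT1-S3 at -0.18 ± 0.18. RT1 genes include closely similar copies, and some of their probes may share targets, which was not checked here. Their single values are therefore uncertain. In 14 of the 18 RT1 genes corn oil replicate 3 lay farther from the other corn oil arrays than those lay from each other, below them in 9 and above them in 5. RT1-CE16 and RT1-CE3, named after their values were seen, were among those above them.

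RT1-CE16 had levels of 3.21, 2.10 and 2.88 after carbon tetrachloride and 2.65, 2.77 and 4.08 after corn oil. RT1-CE3 had 0.84, 1.09 and 0.92 after carbon tetrachloride and 0.71, 0.66 and 2.01 after corn oil. In both the corn oil group held the single highest array, replicate 3. RT1-CE10, also named after the fact, split the rats across the groups, with -1.03, -0.09 and -0.83 after carbon tetrachloride and -1.02, 0.03 and -0.94 after corn oil, so that replicate 2 of each group was high. RT1-A1, by contrast, ranged over 0.22 after carbon tetrachloride and 0.10 after corn oil.

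**Figure D3:**
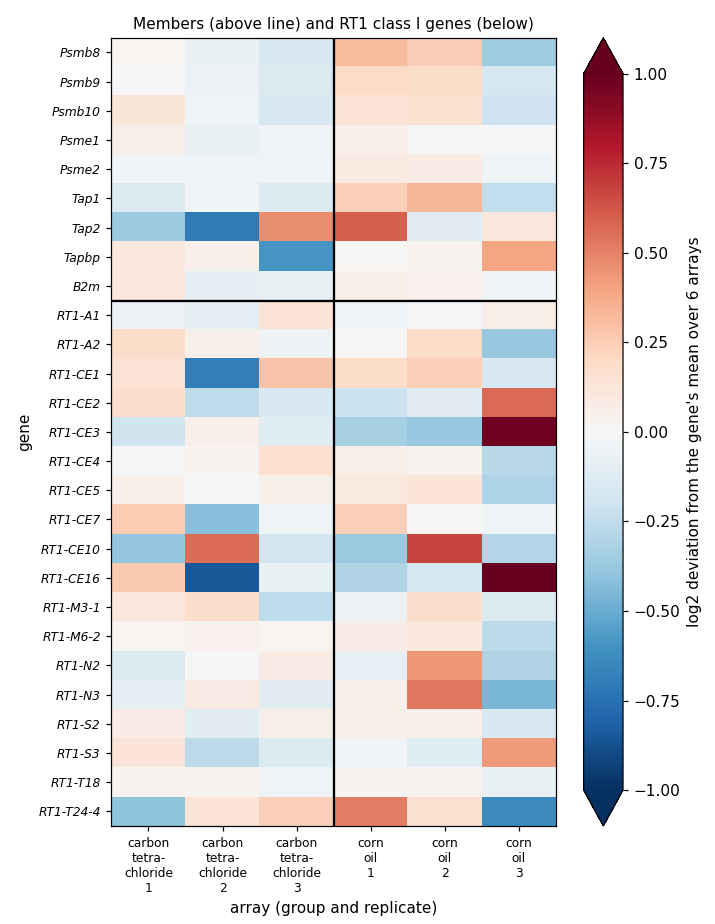
Log2 deviation of each array from the gene's mean over 6 arrays, for the 9 measured antigen processing genes (above the line) and 18 RT1 class I genes (below), with carbon tetrachloride arrays left of corn oil arrays. The column of corn oil replicate 3 is blue for Psmb8, Psmb9, Psmb10 and Tap1 and dark red for RT1-CE3 and RT1-CE16. Colours are capped at 1 on either side of 0.

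Among 24 regulators of class I transcription and interferon signalling, 21 were tested and 0 passed the adjusted threshold. Against 6.3% of all transcripts, 1 of the 21 had an unadjusted p under 0.05 in limma, a count near that share. It was Rfx5, a subunit of the RFX complex that binds class I and class II promoters, with -4.01, -4.04 and -4.24 after carbon tetrachloride against -4.38, -4.27 and -4.33 after corn oil. Its log2 fold change was 0.23 ± 0.09 at an adjusted p of 0.788 (limma). Ifngr1, a chain of the interferon-gamma receptor, had 0.18 ± 0.07 and Ciita, the class II transactivator, -0.42 ± 0.20, also without overlap between the groups. Ciita was low on carbon tetrachloride replicate 2, at -2.77 against -2.12 and -2.10 in replicates 1 and 3. Without that array its log2 fold change was -0.20. Of the 21, 4 were higher and 1 was lower without overlap, against 7.55% and 5.28% of all transcripts.

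Irf1, a transcription factor induced by interferon, had 1.67, 1.97 and 1.78 after carbon tetrachloride and 1.94, 2.02 and 1.80 after corn oil. It did not follow the array order of Psmb8, and its log2 fold change was -0.11 ± 0.11. Ifng did not pass the filter on dim probes.

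Values of leukocyte markers are given because leukocytes also express the pathway. Of 13 T and cytotoxic cell markers, 10 of which were well above background on all arrays, 0 passed the adjusted threshold, and 9 had a lower mean after carbon tetrachloride at an unadjusted p under 0.05, against 2.63% of all transcripts. Cd2 and Cd3e, named after their values were seen, and Cd5 are among the 9 but passed the filter on dim probes only through corn oil, the group where they were brighter. Among the 10 markers bright on all arrays the count was 6. The summed level of the list ran from 2.89 to 3.03 in treated arrays and from 3.76 to 4.37 in corn oil arrays, where 1 is the array's 75th percentile. Cd8b had a log2 fold change of -0.98 ± 0.09, or -0.75 with its probes averaged, and Cd247 -0.79 ± 0.08. In Cd4, Gzma, Gzmb and Prf1, named after their values were seen and not among the 9, the groups overlapped. Cd4 had -0.11 ± 0.11, Gzma -0.0076 ± 0.35, Gzmb -0.043 ± 0.41 and Prf1 -0.22 ± 0.12. For Cd5, 0 of 3 treated arrays were well above background, and its measured signal was at least 1.73-fold lower after carbon tetrachloride (limma, adjusted p = 0.298, range over alternatives 0.262 to 0.821), but with normexp its log2 fold change was -0.15 or -0.19, below that bound. A bound is the bright group's mean against the lowest signal well above background in each dim array, or the probe's own signal there if higher.

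Macrophage and pan-leukocyte markers, 8 tested of 9, summed to between 76.7 and 87.8 in treated arrays and to 103.4 and 76.8 in corn oil replicates 1 and 3, with corn oil replicate 2 above both. Most of that sum is the signal of Lyz2, the brightest probe of the list. The order of Psmb8 was found in 2 of the 8, against 1.75% of all transcripts. These were Cd68 and Lyz2, named after their values were seen. Corn oil replicate 3 was the lowest corn oil array in 4 of the 8, Ptprc, Cd68, Aif1 and Lyz2, against 37.3% of all transcripts. In Csf1r, Adgre1, Mrc1 and Itgam the lowest corn oil array was replicate 1. Cd68 had 1.01, 1.04 and 0.77 after carbon tetrachloride and 1.30, 1.21 and 0.62 after corn oil. Among the markers of smallest p, Ptprc, which encodes CD45 of all leukocytes, had -0.27 ± 0.13, Aif1 -0.25 ± 0.16 and Itgam 1.06 ± 0.64, the last well above background on 2 of 3 corn oil arrays. Without corn oil replicate 3, Ptprc had -0.38 ± 0.10, Aif1 -0.40 ± 0.13 and Itgam 1.05 ± 0.78, with adjusted p-values from 0.589 to 0.797 (limma). Itgam was high on carbon tetrachloride replicate 1 alone, at -3.24, and had 0.41 without that array and 0.48 or 0.44 with normexp.

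B cell and plasma cell markers, 4 tested of 7, summed to between 0.0874 and 0.129 in treated arrays and between 0.123 and 0.208 in corn oil arrays. None of the 4 passed the adjusted threshold in limma. Against 2.63% of all transcripts, 1 had a lower mean after carbon tetrachloride at an unadjusted p under 0.05. That was Tnfrsf17, which passed the filter only through corn oil and had a bound of at least 1.69-fold lower signal after carbon tetrachloride at an adjusted p of 0.465 (range over alternatives 0.344 to 0.828). With normexp its log2 fold change was -0.34 or -0.38, below that bound. Cd79b had -0.28 ± 0.32. The part of leukocytes in the values of the antigen processing genes was not tested. The 10 renal cortex markers were well above background on all arrays, with a median log2 fold change of 0.046. The podocyte gene Nphs1 had 0.20 ± 0.13, and the endocytic receptor gene Lrp2, whose sign turned when its probes were averaged, 0.087 ± 0.09.

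**Figure D4:**
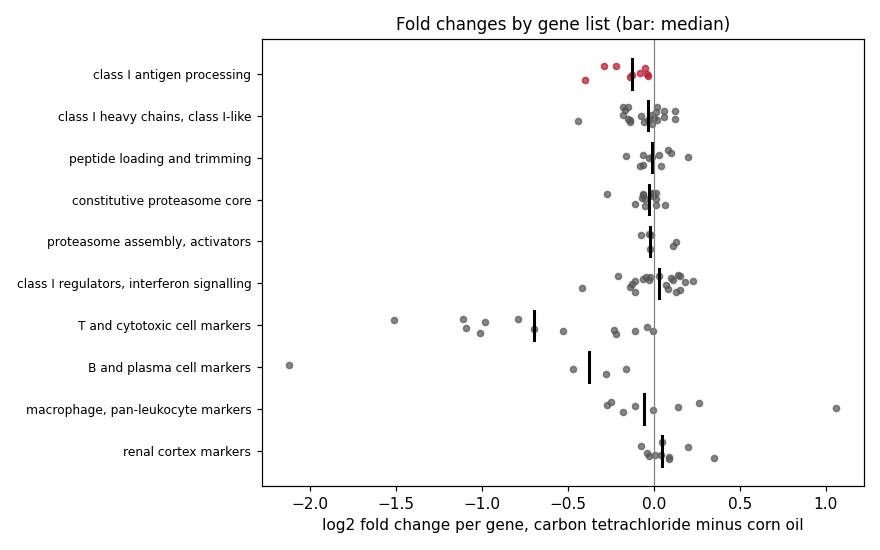
Log2 fold change of each tested gene, carbon tetrachloride minus corn oil, by gene list, with a black bar at the median. The 9 antigen processing genes (red) lie between -0.40 and -0.033, and the 13 T and cytotoxic cell markers have a median of -0.70. Those 13 include Cd2, Cd3e and Cd5, which lie below that median and passed the filter on dim probes only through corn oil. The median is therefore not one of markers bright on all arrays.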

How the data were processed

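Cy3-labelled RNA from 6 rats, 3 per group, was measured on 1-colour Agilent arrays, per the labels. Each scanner file gives spot intensity, and its processed signal was background-subtracted with Agilent Feature Extraction 10.7.1.1, per the file headers. The authors' deposited value table holds that intensity on a linear, uncentred scale, divided by nearly 1 factor per array (medians 1015 to 1092), with column medians of 0.116, 0.115 and 0.111 for carbon tetrachloride replicates 1 to 3 and 0.118, 0.111 and 0.114 for corn oil replicates 1 to 3. How it was made is not given in the sources used here.

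The 75th percentile of each array was subtracted from log2 processed signals, leaving out 1439 control spots and outlier flags. Accessions named 28206 of 61537 probes through RefSeq genes of GRCr8. Tested probes had to be well above background on every array of 1 group or both, and the brightest such probe stood for its gene. The two-sided comparison used limma 3.58.1 (R 4.3.3), with Benjamini-Hochberg adjustment over all 31193 transcripts, and the code was tested on simulated data. The labels do not say that replicate numbers pair the rats. Deviations of same-numbered arrays from their group means correlated from -0.10 to -0.02, which does not settle whether rats were paired.

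Genes and lists were chosen with earlier results of these data known. All members are named, and from each other list those past the adjusted threshold, otherwise the 3 of smallest p, plus Psmb5, Psmb6, Psmb7, Irf1, Ifng and Rfx5. Some genes that this rule takes are not reported here. Alternatives were other background corrections, scalings, filters and probe summaries, the deposited table, trend with robust fitting, replicate or slide blocks, the first slide alone, and each array left out.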

Additional observations from a re-analysis of the deposited data

How the results depend on the processing

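Over 18 alternatives, limma called 0 of the 9 antigen processing genes at the adjusted threshold, with 0.584 as the lowest adjusted p. At an unadjusted p under 0.05 there were 3 genes without corn oil replicate 3, 1 with the slide as a block or within the first slide, and 0 otherwise. The median log2 fold change of the 9 stayed within the spread between arrays, from -0.17 to -0.052. A block for replicate number gave -0.13, and it changed no call of these genes, though the labels do not say that the numbers pair the rats. The slide block, the first slide alone and the fit without carbon tetrachloride replicate 3 give the same estimates. The count of 1 transcript past the threshold over the whole array became 0 under both normexp settings, both other filters on dim probes, the robust trend, the replicate block, the slide block and the first slide alone, and it ran from 0 to 2 without single arrays. Of 162 alternative values of the 9 genes, 7 turned sign: Psmb10 to 0.012 with the slide block and within the first slide and, without single arrays, to between 0.0053 and 0.012 (without corn oil replicate 1 or 2 at 0.0053 and 0.0084, without carbon tetrachloride replicate 3 at 0.012), and Psme1 to 0.0017 and 0.026 with normexp and percentile or quantile scaling. Of 555 values of 31 other genes, 5 turned sign: Psmb5 to -0.031 and -0.015 with normexp and, without single arrays, to between -0.0045 (carbon tetrachloride replicate 2 left out) and 0.025, Lrp2 to -0.042 with averaged probes, and Cd79b, which ranged from -0.57 to 0.063 without single arrays, the last without corn oil replicate 1. The cause was not tested. All 17 probes of the 9 genes were well above background on all arrays, so signal over background does not limit them, while 3 rats per group do.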
